A study of Mus musculus with 6 samples.

Results

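The Myc family and a group of stem cell regulators were followed through single-cell RNA-seq libraries of a mouse glioma line kept in different media. The genes are Myc, Mycn, Mycl and their partner Max, with Klf4, Bmi1, Msi1, Msi2, Pou3f2 and Sall2. Each was taken by its symbol, and each matched 1 of the 54446 genes in the files, giving 10 members. Of the 10, 9 passed the filter on low counts together with other genes, and 18439 genes were tested in all. Mycn did not pass, because it had no UMI in any called cell.

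GL261 is an established mouse glioma line. The group labelled GL261 (2 libraries) was kept in a differentiation medium with fetal calf serum. The group labelled GL261-GSCs (4 libraries), from cultures labelled glioblastoma stem cells, was kept in a defined stem cell medium. All 6 libraries come from the same line, and the labels name no genetic change, drug or time. Culture medium and culture type go together in this design and cannot be told apart. The labels do not say whether the libraries of a group came from separate cultures, so p-values measure the spread between these libraries, which may be technical. The values are UMIs, counts of labelled RNA molecules, from droplet libraries that read the 5' end of each transcript. For each library the UMIs of its called cells were added up gene by gene and scaled to CPM, so that libraries of different depth compare.

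The libraries held 4264 to 7275 called cells and 33320530 to 79472306 UMIs in those cells. GL261-GSCs replicate 4 was the shallowest, with a median of 6670 UMIs per cell against 10638 to 15478 in the others. In it 41.2% of UMIs lay in called cells, against 56.7% to 65.7% elsewhere. Pairs of libraries shared 32 to 59 cell barcodes, where independent draws from the barcode list would give 26.1 to 57.9. All 5 markers of neural stem and glioma cells had UMIs, and their summed level, in CPM without TMM scaling, was 14538 to 15185 in GL261 and 5152 to 6031 in GL261-GSCs. Most of that sum was Vim, which with Nes and Gfap was lower in GL261-GSCs, Gfap with 3 UMIs in 4 libraries. Sox2 and Fabp7 were higher there, Sox2 at 81.7 to 141 CPM against 66.8 and 67.5. The 5 fibroblast and pericyte markers summed to 239 to 263 in GL261 and 11.5 to 27.0 in GL261-GSCs. Nearly all of this was Col1a1, at 16670 and 17001 UMIs in GL261 and 1031, 783, 2106 and 606 in GL261-GSCs. Pdgfrb was also lower in GL261-GSCs, while Dcn and Rgs5, with few UMIs, were not. The 5 oligodendrocyte precursor markers summed to 480 to 517 in GL261 and 1300 to 2394 in GL261-GSCs. Olig1, Olig2 and Pdgfra were called higher there by edgeR, while Sox10 and Cspg4 were not called. Cspg4 stood at 164 and 200 CPM in GL261 and at 67.2, 83.3, 148 and 209 in GL261-GSCs. The 5 neuron markers reached 0.198 to 0.267 and 1.27 to 85.7, with Rbfox3 at 0. The higher sums were nearly all Syt1, at 76, 899, 4122 and 2845 UMIs in GL261-GSCs, while Snap25 had 7 UMIs and Gad1 2 in all libraries. The 9 microglia and macrophage markers summed to 18.3 to 19.9 and 9.52 to 25.3, with C1qa at 0. Of the 2 tested, Csf1r was called lower in GL261-GSCs by edgeR (log2 fold change -5.79). Cd68 had 1.11 and was not called (edgeR adjusted p 0.0662), at 7.87 and 7.04 CPM in GL261 and 8.92 to 23.0 in GL261-GSCs. The 5 endothelial markers reached at most 1.56, with Cldn5 at 0, and the 4 T cell markers at most 2.01. The part of these differences in the results below was not tested. Fewer cells that hold a transcript and less of it per cell cannot be told apart in the summed values. Shares of cells with a UMI are given beside them. At a fixed depth such a share also rises with the level per cell, so it does not tell these apart either.

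Myc proteins are transcription factors that bind E-box sequences as dimers with Max and drive ribosome synthesis, metabolism and growth. Mad proteins, the Mxi1 protein and Mnt compete with them for Max. Klf4 is a zinc finger transcription factor used with Myc in reprogramming to pluripotency, and in many epithelia it marks differentiation and growth arrest. Bmi1 is a subunit of Polycomb repressive complex 1, known for silencing the Cdkn2a locus in neural stem cells. Musashi proteins Msi1 and Msi2 bind RNA and restrain its translation in neural progenitors. Pou3f2 and Sall2 are transcription factors from a set used to reprogram differentiated human glioblastoma cells into stem-like cells.

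The promoters of 4 members are shown, those of the largest fall and rise on the log2 scale, of a member that did not pass the test and of the one without a UMI. Each is the stretch of 250 bases before the start annotated by RefSeq, since the libraries read the 5' ends of transcripts. For Mycl and Mycn that start lies inside the gene as GENCODE gives it, so the Mycl window falls wholly within the GENCODE gene and the Mycn window overlaps it. Sequences are from RefSeq on GRCm38.p6, on the strand of the gene and from 5' to 3'. The promoter table matched 8 of the 10 members, all but Myc and Msi1, with 11 windows. Capitals mark the palindromic E-box CACGTG, the site to which Myc and Max dimers bind. On the log2 scale Klf4 fell most and Mycl rose most, Bmi1 did not pass the test, and Mycn had no UMI.
Klf4 (chr4:55532476-55532725, minus strand): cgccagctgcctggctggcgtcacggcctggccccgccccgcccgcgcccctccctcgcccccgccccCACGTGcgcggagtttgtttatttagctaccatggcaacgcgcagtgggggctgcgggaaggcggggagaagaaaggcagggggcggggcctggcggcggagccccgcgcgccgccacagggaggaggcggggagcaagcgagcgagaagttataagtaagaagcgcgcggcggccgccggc
Mycl (chr4:122995681-122995930, plus strand): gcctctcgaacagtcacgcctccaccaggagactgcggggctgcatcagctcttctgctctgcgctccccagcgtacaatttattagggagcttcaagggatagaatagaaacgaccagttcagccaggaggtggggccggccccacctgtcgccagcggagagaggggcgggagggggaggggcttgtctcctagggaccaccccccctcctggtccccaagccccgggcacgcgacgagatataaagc
Bmi1 (chr2:18676768-18677017, plus strand): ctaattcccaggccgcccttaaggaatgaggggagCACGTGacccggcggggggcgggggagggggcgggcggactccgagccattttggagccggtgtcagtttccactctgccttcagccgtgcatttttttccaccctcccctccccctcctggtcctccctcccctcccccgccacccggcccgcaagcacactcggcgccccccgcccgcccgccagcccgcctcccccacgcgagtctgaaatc
Mycn (chr12:12941837-12942086, minus strand): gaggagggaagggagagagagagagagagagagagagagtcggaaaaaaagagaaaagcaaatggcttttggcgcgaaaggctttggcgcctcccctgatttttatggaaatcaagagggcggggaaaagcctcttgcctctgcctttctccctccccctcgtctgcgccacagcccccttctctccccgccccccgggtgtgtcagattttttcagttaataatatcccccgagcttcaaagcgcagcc
Klf4 held the E-box 182 bases before its start and Bmi1 215 bases before its start. Msi2, the only other member with a match among those in the table, held it in each of its 3 windows. These windows overlap and share the same site, and the window from 88718230 to 88718479 held a further match. Of all 32851 windows of this length, 6.02% held the motif. The windows of Mycl, Mycn, Max, Pou3f2 and Sall2 did not contain these letters. A match is a description of the sequence and does not show binding.

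Against this background, 4 of the 9 tested members passed the test between the groups, an edgeR quasi-likelihood test with Benjamini-Hochberg adjustment over all tested genes. Myc, Mycl and Msi1 were higher in GL261-GSCs and Klf4 was lower. In the same test 29.9% of all genes passed, 15.8% as higher and 14.1% as lower, 5514 genes in all. Without GL261 replicate 1 or 2 the number was 1972 or 1817. With scaling by library size alone, which moved the median of all genes from 0.04 to 0.18 on the log2 scale, 3491 genes were called higher and 2034 lower, in place of 2920 and 2594. The 4 members kept their call and direction under that scaling and under each other alternative run. Without the shallow GL261-GSCs replicate 4 their log2 fold changes were 1.57 (Myc), 3.54 (Mycl), -4.37 (Klf4) and 2.49 (Msi1). CPM values did not overlap between the groups for 5 of the 9, which was the case for 56.7% of all tested genes.

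**Figure D1:**
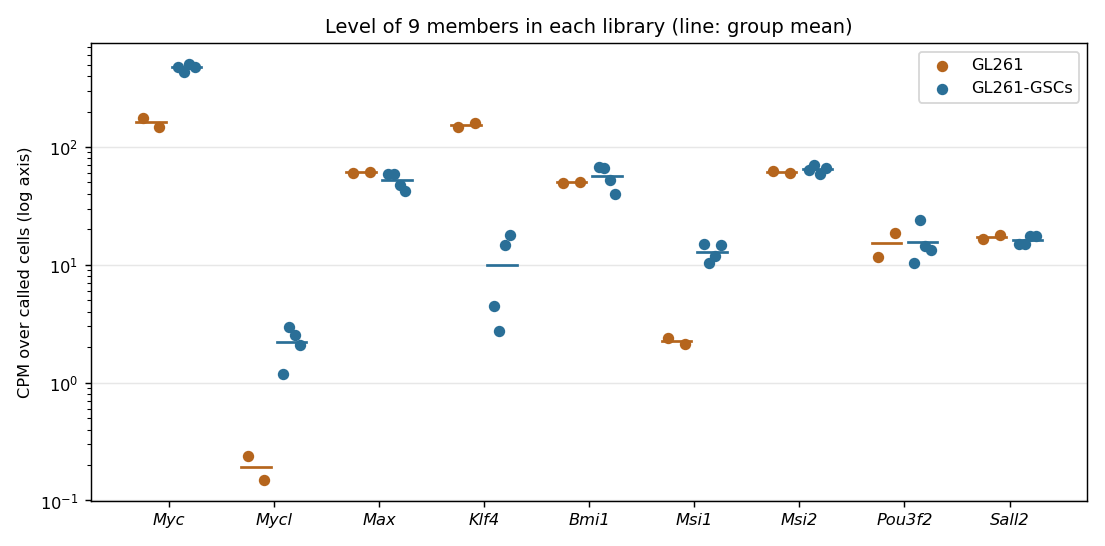
CPM over called cells (log axis) of the 9 members with UMIs in 2 GL261 and 4 GL261-GSCs libraries, 1 point per library and a line at each group mean. Myc, Mycl and Msi1 lie higher in GL261-GSCs and Klf4 lower, with a spread from 2.72 to 17.8 CPM among the GL261-GSCs libraries. The other members lie at similar heights in both groups.

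Myc (ENSMUSG00000022346.15, chromosome 15, 61985391 to 61990374, plus strand, GRCm38) encodes the best known member of the family. It stood at 177 and 148 CPM in GL261 replicates 1 and 2 and at 480, 433, 505 and 478 CPM in GL261-GSCs replicates 1 to 4. Every GL261-GSCs library was above both GL261 libraries, and the 4 agreed within a factor of 1.17. The group means were 162 ± 20.7 (SD, n = 2) and 474 ± 29.8 (SD, n = 4) CPM. The log2 fold change was 1.55 (SE 0.15), a 2.92-fold higher level, with an edgeR adjusted p of 0.000627.

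Cells in which a Myc UMI was detected were also more common. At a fixed depth such a share rises with the mean level, so this is not a separate result. When each cell was thinned to 2000 UMIs, so that depth was equal, 24.8% and 21.3% of GL261 cells held a Myc UMI. In GL261-GSCs the share was 54.8%, 52.7%, 58.6% and 58.3%, and the groups did not overlap. Free RNA, estimated from barcodes without cells, would give 0.803% to 1.06% in GL261 and 3.49% to 8.76% in GL261-GSCs. The group means of 23.0% and 56.1% differed by 33.1 percentage points, with an exact permutation p of 0.133, the smallest that 2 against 4 libraries can give. Without thinning the shares averaged 65.6% and 90.2%. In GL261 replicate 1 a single cell held 133 Myc UMIs, 1.11% of the Myc UMIs of its library, where the next held 57.

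Mycn (ENSMUSG00000037169.15, chromosome 12, 12936093 to 12941914, minus strand) encodes the family member known from developing brain and neuroblastoma. It had 0 UMIs in all 6 libraries, in called cells and in all 636560461 UMIs of all barcodes. In the called cells, 3 UMIs would have been a level of 0.0377 CPM in the deepest library and 0.0900 in the shallowest. In single cells thinned to 2000 UMIs, 0 of 7275 cells in GL261-GSCs replicate 3 allows a share of up to 0.0412% of cells with a UMI, which does not limit the share of cells that express the gene. Whether reads of Mycn were lost in the authors' counting or the gene was silent cannot be told apart from these files. Among 21918 protein-coding genes 14.4% had no UMI in any barcode. The neighbours Ddx1 and Nbas, which lie next to Mycn on chromosome 12, were expressed. Ddx1 averaged 116 CPM in GL261 and 120 in GL261-GSCs, and Nbas 22.6 and 34.3.

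Mycl (ENSMUSG00000028654.13, chromosome 4, 122995652 to 123002485, plus strand), the third family member, was scarce in both groups. It gave 16 and 9 UMIs in the GL261 libraries and 78, 217, 204 and 76 in the GL261-GSCs libraries. These are 0.237 and 0.149 CPM against 1.18, 2.99, 2.55 and 2.09 CPM. GL261-GSCs replicate 1 had the lowest level of its group and was still above both GL261 libraries. The log2 fold change was 3.50 (SE 0.51), 11.3-fold, with an edgeR adjusted p of 0.0033. At 2000 UMIs per cell, 0.104% and 0.0200% of GL261 cells and 0.211%, 0.647%, 0.632% and 0.488% of GL261-GSCs cells held a UMI, so the gene was seen in few cells of either group.

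Max (ENSMUSG00000059436.13, chromosome 12, 76937269 to 76962201, minus strand) encodes the obligate partner of all Myc proteins. It stood at 60.6 and 61.3 CPM in GL261 and at 59.2, 58.9, 47.8 and 42.7 CPM in GL261-GSCs. All 4 GL261-GSCs values lay below those of GL261, replicates 1 and 2 by little and replicates 3 and 4 by more, and the difference did not pass the test (log2 fold change -0.22, SE 0.17, edgeR adjusted p 0.343). A model of unknown coding status, Gm47218, lies within Max on the same strand, and the counts could be split between them.

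Of 9 other genes of the network around Myc and Max, antagonists among them, 6 rose and Mlx, the Max-like partner of the glucose-sensing factors, fell. Without either GL261 library 1 of the 9, Mxd4, was called, and without GL261-GSCs replicate 3 there were 4 higher and 0 lower. The median log2 fold change of the 9 was 0.75, against 0.04 over all tested genes. Mxd4, a Mad family repressor that competes for Max, stood at 66.1 and 59.7 CPM in GL261 and at 127 to 145 in GL261-GSCs (log2 fold change 1.13, SE 0.12, edgeR adjusted p 0.00109). Mga, a large protein that binds Max in a Polycomb-type repressor, rose by 0.75 (SE 0.12, adjusted p 0.00414). The others that rose, named after their values were seen, were Mxd1, Mxi1, Mlxip and Mlxipl.

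Of 15 cofactors and turnover factors of Myc, 1 was called. That was Usp28, a deubiquitinase known to act on Myc, with a log2 fold change of 0.86 (SE 0.20, edgeR adjusted p 0.0186). Trrap, a scaffold of histone acetyltransferases recruited by Myc, had 0.50 (SE 0.18, adjusted p 0.0845). It passed with scaling by library size alone (0.64, adjusted p 0.0333). It also passed without GL261-GSCs replicate 1 (0.37, adjusted p 0.0499). Over its 11 settings that kept all libraries the adjusted p ran from 0.0333 to 0.135.

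Of 25 target genes of ribosome synthesis and growth, 1 was called between the groups, and it fell. Without GL261-GSCs replicate 4 there were 2 higher and 1 lower, without replicate 1 there were 0 and 2, and without any 1 of the other libraries 0 and 0. The median log2 fold change was -0.18, against 0.04 for all tested genes, and with scaling by library size alone it was -0.03 against 0.18, with 1 gene higher and 1 lower. The called gene was Nme1, a nucleoside diphosphate kinase, at 149 and 114 CPM in GL261 and 87.2, 69.4, 73.3 and 45 in GL261-GSCs (log2 fold change -0.93, SE 0.25, edgeR adjusted p 0.0332). Mybbp1a, a nucleolar protein of ribosome production, had -0.57 (SE 0.21, adjusted p 0.0854, and 0.0354 without GL261-GSCs replicate 1). Summed over the list, target RNA made up 8241 and 8530 CPM in GL261 and 9035, 8984, 8252 and 6342 in GL261-GSCs (exact permutation p 0.933). Replicates 1 and 2 of GL261-GSCs lay above both GL261 libraries, replicate 3 between them and replicate 4 below. Without TMM scaling the sums were 7829 and 7826 against 9100, 9291, 8302 and 6929 (exact permutation p 0.533), so that the direction of the difference in means turned with the scaling.

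**Figure D2:**
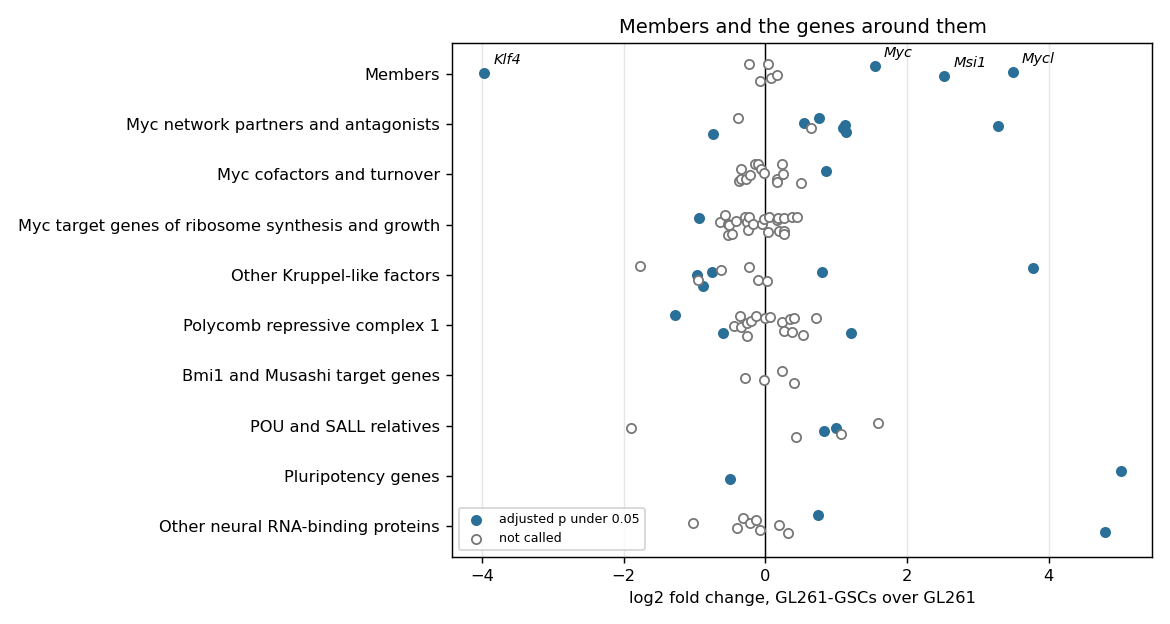
Log2 fold change of GL261-GSCs over GL261 (x axis) for the tested genes among the members and in 9 lists of related genes, 1 point per gene, filled where the adjusted p is under 0.05. Klf15, Igf2bp1 and Elavl4, with at most 3 UMIs in a group, are left out. In the list of Myc network partners and antagonists, which does not hold Max, most genes lie to the right of 0. The 25 Myc target genes lie around or left of it.

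Klf4 (ENSMUSG00000003032.8, chromosome 4, 55527143 to 55532466, minus strand) showed the largest log2 fold change, in absolute value, among the tested members. It stood at 149 and 160 CPM in GL261 and at 4.49, 2.72, 14.7 and 17.8 CPM in GL261-GSCs. All 4 GL261-GSCs libraries were far below GL261, but they varied among themselves by a factor of 6.54, with replicates 1 and 2 low and replicates 3 and 4 higher. The log2 fold change was -3.97 (SE 0.70), 15.7-fold lower, with an edgeR adjusted p of 0.00697. At 2000 UMIs per cell, 21.3% and 22.4% of GL261 cells held a Klf4 UMI, against 0.844%, 0.528%, 2.69% and 3.77% of GL261-GSCs cells. Free RNA would give 0.0422%, 0.0198%, 0.169% and 0.448% in those 4 libraries, below the measured share in each. The difference of 19.9 percentage points in the group means had an exact permutation p of 0.133, the smallest possible.

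**Figure D3:**
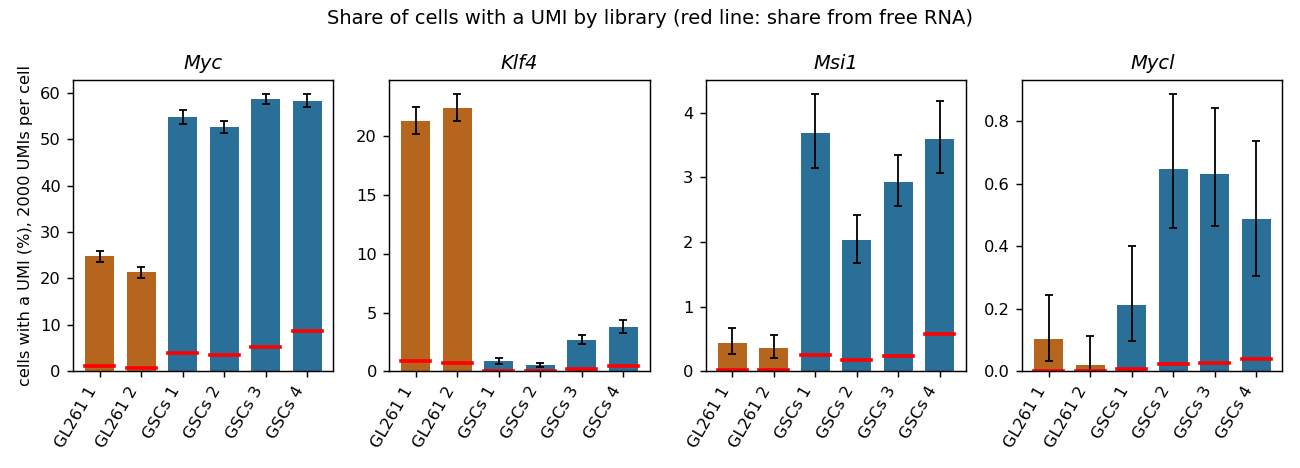
Share of cells with a UMI (%, y axis, each cell thinned to 2000 UMIs) of the 4 members called between the groups, in each of the 6 libraries, with exact binomial 95% intervals that cover counting error only. Red lines mark the share that free RNA would give. Klf4 is seen in over 20% of the cells of both GL261 libraries and in at most 3.77% of the cells of a GL261-GSCs library.

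Other Kruppel-like factors did not all follow Klf4. Of 12, 4 fell and 2 rose, and the median log2 fold change was -0.69. Klf15, a factor of metabolic and glucocorticoid responses, had 347 and 338 UMIs in GL261 and none in the called cells of the 4 GL261-GSCs libraries, which makes it at least 414-fold lower against a floor of 3 UMIs over the group. Klf6, a growth-regulating and stress-responsive factor, fell from 114 and 109 CPM to between 58.5 and 70.2 (log2 fold change -0.76, SE 0.12, edgeR adjusted p 0.00467). Klf3 and Klf5 also fell, while Klf11 and Klf12 rose (named after their values were seen). With scaling by library size alone 3 fell and 2 rose.

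Bmi1 (ENSMUSG00000026739.13, chromosome 2, 18677018 to 18686629, plus strand) stood at 49.6 and 50.8 CPM in GL261. In GL261-GSCs it stood at 67.5, 66.6, 52.2 and 39.7 CPM. Replicates 1 and 2 were above GL261 and replicate 4 below, so the groups overlapped (log2 fold change 0.17, SE 0.23, edgeR adjusted p 0.602). At 2000 UMIs per cell it was seen in 8.86% and 8.96% of GL261 cells and in 12.8%, 11.8%, 9.83% and 8.0% of GL261-GSCs cells, in the same order of libraries.

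Among 19 other genes of Polycomb repressive complex 1, 1 rose and 2 fell, and the median log2 fold change was -0.01. Phc2, a subunit that joins complexes into larger assemblies, stood at 127 and 122 CPM in GL261 and at 46.1 to 59.6 in GL261-GSCs (log2 fold change -1.27, SE 0.14, edgeR adjusted p 0.00109). Kdm2b, which brings a variant complex to CpG islands, rose from 33.2 and 34.8 CPM to between 64.7 and 106 (1.21, SE 0.23, adjusted p 0.00963). With scaling by library size alone 3 rose and 1 fell. None of the 4 target genes of Bmi1 and Musashi passed the edgeR test, nor did any by DESeq2 or limma-voom, and 0 had an unadjusted p under 0.05. With the replicate number as a block 1 of the 4 was called higher. Musashi proteins act on translation, which RNA levels do not measure. Cdkn2a, the locus that Bmi1 is known to silence, gave 571 and 566 CPM in GL261 and 848, 747, 559 and 533 in GL261-GSCs. Numb, the known translational target of Musashi, did not pass at -0.29 (SE 0.15, adjusted p 0.202). Cdkn1a, a cyclin-dependent kinase inhibitor, had 0.40 (SE 0.24, adjusted p 0.250).

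Msi1 (ENSMUSG00000054256.11, chromosome 5, 115429599 to 115455698, plus strand) stood at 2.37 and 2.12 CPM in GL261 and at 14.9, 10.3, 11.9 and 14.6 CPM in GL261-GSCs. All GL261-GSCs libraries were above both GL261 libraries. The log2 fold change was 2.53 (SE 0.24), 5.76-fold, with an edgeR adjusted p of 0.000665. At 2000 UMIs per cell, 0.437% and 0.360% of GL261 cells held an Msi1 UMI. Of GL261-GSCs cells, 3.68%, 2.03%, 2.93% and 3.59% held one, again without overlap, where free RNA would give 0.173% to 0.576%. The antisense gene 4930430O22Rik overlaps Msi1, and no source used here says whether counting used strand.

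Msi2 (ENSMUSG00000069769.13, chromosome 11, 88339382 to 88718513, minus strand) stood at 62.1 and 60.2 CPM in GL261 and at 63.4, 70.6, 58.4 and 66.2 in GL261-GSCs. The groups overlapped, and the log2 fold change was 0.08 (SE 0.12, edgeR adjusted p 0.652). A pseudogene, Gm11510, lies within Msi2 on the same strand, which leaves its count uncertain. Msi1 thus differed between the groups by a called amount and its close relative did not pass, but the difference between them was not tested.

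Among 14 other neural RNA-binding protein genes 12 were tested, 2 rose and 1 fell. Nova1, a neuronal splicing regulator, stood at 0.711 and 0.729 CPM in GL261 and at 13.2, 20.9, 18.5 and 27.7 in GL261-GSCs (log2 fold change 4.8, SE 0.38, edgeR adjusted p 0.000334). Igf2bp1, an oncofetal protein that stabilizes Myc RNA, had 273 and 400 UMIs in GL261 and 2 in all GL261-GSCs libraries. Relative to library totals it was 611 times as frequent in GL261, with a 95% counting interval of 168 to 5052. Igf2bp3, its relative, rose. Elavl4, also tested, had no UMI in GL261 and 506 in GL261-GSCs, at least 93.0-fold higher against a floor of 3 UMIs over the group. Its UMIs in GL261-GSCs replicates 1 to 4 were 0, 13, 266 and 227, so that replicate 1 had none, like GL261. It was not called, and it and Igf2bp3 are named after their values were seen.

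Pou3f2 (ENSMUSG00000095139.2, chromosome 4, 22482780 to 22488366, minus strand) stood at 11.5 and 18.8 CPM in GL261 and at 10.4, 23.9, 14.4 and 13.5 in GL261-GSCs. Its libraries were spread alike in both groups, and the log2 fold change was 0.04 (SE 0.36, edgeR adjusted p 0.948). Sall2 (ENSMUSG00000049532.11, chromosome 14, 52311172 to 52328762, minus strand) stood at 16.4 and 17.8 CPM in GL261 and at 15.1, 14.9, 17.6 and 17.6 in GL261-GSCs. This was also within the spread of the libraries (-0.07, SE 0.15, adjusted p 0.756). These p-values do not show that the levels are equal.

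Of 9 POU and SALL relatives 6 were tested and 2 rose. Pou6f1, a POU factor of the developing brain, had a log2 fold change of 0.99 (SE 0.25, edgeR adjusted p 0.0236), and Sall3, a zinc finger relative of Sall2, had 0.82 (SE 0.21, adjusted p 0.0260). Of 10 pluripotency genes 8 had too few UMIs to be tested, among them Pou5f1 and Nanog. Tfcp2l1, a factor of naive pluripotent cells, stood at 0.992 and 1.06 CPM in GL261 and at 20.03, 26.2, 38.8 and 48.3 in GL261-GSCs (5.02, SE 0.46, adjusted p 0.00055). Dppa4, a chromatin protein of early embryos, was lower, at -0.50 (SE 0.12, adjusted p 0.0211).

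The spread of GL261 rests on 2 libraries, and leaving out either left Mga, Usp28, Nme1, Klf6, Kdm2b, Pou6f1, Sall3 and Dppa4 uncalled, with edgeR adjusted p from 0.0529 to 0.226. Mxd1, Mxi1, Mlxip, Mlxipl, Mlx, Klf3, Klf5, Klf11, Klf12 and Igf2bp3 also lost their calls without either, with adjusted p from 0.0618 for Klf12 to 0.254 for Mlxipl. Mxd4, Klf15, Phc2, Igf2bp1, Nova1 and Tfcp2l1 kept theirs. Of the 12 Kruppel-like factors 0 were then called higher and 1 lower, and without GL261-GSCs replicate 3 there were 1 and 2. Nme1 was also lost without GL261-GSCs replicate 2 or 3 (0.0702 and 0.0669), Pou6f1 and Sall3 without replicate 3 (0.0549 and 0.0534), and Dppa4 with scaling by library size alone (0.0762). Without GL261 replicate 2 a relative in the POU and SALL list, Pou2f2, was called lower (adjusted p 0.0213), and none higher.

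For each tested member, the 2 genes with the most similar profile over the 6 libraries were sought among 7451 genes with an average log2 CPM of at least 4. Likeness was the root mean square difference of log2(CPM + 1) after each gene was centred on its mean. For Myc these were Slc39a10, a zinc importer (0.04), and Kctd3 (0.09). Slc39a10 stood at 20.9 and 16.8 CPM in GL261 and at 51.0 to 55.4 in GL261-GSCs, with a log2 fold change of 1.52. For Klf4 they were Pcdh1, a protocadherin (0.31), and Pdzd2 (0.35), both low in GL261-GSCs replicates 1 and 2 and higher in replicates 3 and 4. Mycl was nearest to Heg1 (0.15) and Elovl6 (0.15), on a scale where the added 1 compresses its low values. Msi1 was nearest to Tbc1d16 (0.12) and Zfp395 (0.14). Max was nearest to Fam98b and Txlna, Bmi1 to Psmd1 and Dpm2, Msi2 to Zfp280d and Paip2b, Pou3f2 to Gpt2 and Pfn2, and Sall2 to Ubxn6 and Ankmy2. These are descriptions over 6 libraries, and the libraries of a group share their medium.

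The chromosome around each member was described by the 10 tested genes on each side. Around Myc the median log2 fold change of those 20 genes was 0.72, with 9 called higher and 1 lower, against a median of 0.37 for all 710 other genes tested on chromosome 15, these 20 included. Pvt1, the long noncoding RNA gene that lies next to Myc (62037986 to 62378096), stood at 30.4 and 25.6 CPM in GL261 and at 70.3, 71.8, 90.8 and 107 in GL261-GSCs. Its log2 fold change of 1.60 (SE 0.22, edgeR adjusted p 0.00264) was close to that of Myc, and it is named after its values were seen. Around Klf4 the median was -0.17, with 2 higher and 2 lower, around Mycl -0.06, with 3 and 4, and around Msi1 0.26, with 3 and 1. The medians of the whole chromosomes were 0.00 for Mycl and Klf4 on chromosome 4 and 0.27 for Msi1 on chromosome 5. Among members that were not called, around Bmi1 the median was 0.72 (chromosome 0.03), with 3 higher and 1 lower, around Pou3f2 0.59 (0.00), with 5 and 0, and around Sall2 0.34 (0.07), with 8 and 0. The medians were 0.06 around Max, -0.13 around Mycn and -0.26 around Msi2.

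The members were then followed through the cell cycle within each library. Cells in the top 25% of the G2/M gene share were compared with cells below the median of both cycle lists, and cells in the top 25% of the G1/S share that were not in the G2/M class were compared in the same way. The classes are ranges of a score and not cell types. In each library, 173 to 784 cells lay within 10% of a threshold. Median UMIs per cell were 7632 to 17252 in the G2/M-high cells and 6715 to 13826 in the low cells. Of 14068 genes, 52.8% passed the edgeR test in the G2/M comparison, 22.7% higher and 30.1% lower. Among 13785 genes, 46.0% passed in the G1/S comparison, 20.5% higher and 25.5% lower.

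Myc was lower in G2/M-high cells in each of the 6 libraries. It stood at 135 and 120 CPM against 198 and 172 in the low cells of GL261, and at 489, 404, 450 and 380 against 518, 522, 628 and 575 in GL261-GSCs. The log2 fold change was -0.43 (SE 0.06, edgeR adjusted p 0.000387). Klf4 fell from 179 and 189 CPM in low cells to 118 and 137 in G2/M-high cells of GL261. In GL261-GSCs it fell from 11.2, 6.49, 23.5 and 24.5 CPM to 1.33, 1.09, 7.53 and 13.6 CPM. The drop was present in 6 of 6 libraries, with a log2 fold change of -1.12 (SE 0.26, edgeR adjusted p 0.00467).

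Msi1 was lower in 6 of 6 libraries (log2 fold change -0.69, SE 0.12, edgeR adjusted p 0.000965). Mycl was lower in the 4 GL261-GSCs libraries and not in the 2 GL261 libraries, which held 3 to 7 Mycl UMIs per G2/M-high class (log2 fold change -1.07, SE 0.29, adjusted p 0.0108, and -0.87 with adjusted p 0.0682 without GL261-GSCs replicate 2). Thus 4 of 9 tested members were called lower and none higher, where 30.1% of all genes were called lower and 22.7% higher. Being called here is thus not particular to the members. The 4 are also those that differed between the groups. Max, Bmi1, Msi2, Pou3f2 and Sall2 did not pass. Pou3f2 (0.18, adjusted p 0.0548) passed as higher without GL261-GSCs replicate 3 or 4 (0.0413 and 0.0492) and with the top 10% of cells (0.0275).

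In G1/S-high cells the same 4 were lower, with Mycl lower in 4 of 6 libraries and the others in 6 of 6. Of all genes, 25.5% were called lower there and 20.5% higher. The log2 fold changes were -0.27 for Myc (edgeR adjusted p 0.00179), -0.68 for Klf4 (0.00656), -0.34 for Msi1 (0.00752) and -0.74 for Mycl (0.0241). Pou3f2 was higher in all 6 libraries, with 12.8 and 19.0 CPM against 10.1 and 18.0 in GL261 and 12.3, 27.3, 18.0 and 15.7 against 7.72, 20.2, 13.9 and 13 in GL261-GSCs (0.35, SE 0.08, adjusted p 0.00472). Bmi1 was slightly higher in 6 of 6 libraries (0.13, SE 0.05, adjusted p 0.0418). With the top 10% of cells Mycl and Bmi1 were not called (adjusted p 0.167 and 0.0711), and Msi2 was called lower (-0.18, adjusted p 0.0387). The calls of Mycl, Bmi1 and Msi1 here did not hold without some libraries. Without GL261-GSCs replicate 2 their adjusted p was 0.151, 0.0748 and 0.0589. Mycl was also lost without GL261-GSCs replicate 3 or 4 (0.0593 and 0.0685), and Bmi1 without GL261 replicate 1 or GL261-GSCs replicate 3 or 4 (0.104, 0.145 and 0.0705).

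The cycle effect in each group was also taken from a fit of all 6 libraries, in which the groups share the estimate of spread. For GL261, 2 of the 9 members were called by edgeR in G2/M-high cells, Myc (-0.53) and Msi1 (-0.94), where 26.2% of genes were. In G1/S-high cells 0 were called and 0 had an unadjusted p under 0.05, where 15.3% of genes were called. For GL261-GSCs 5 were called in G2/M-high cells, where 51.1% of genes were, and 6 in G1/S-high cells, where 43.0% were. Msi2 was among them in both, at -0.20 and -0.19.

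Myc target genes went the other way. Of the 25, 20 were higher in G2/M-high cells and 22 in G1/S-high cells, and none was lower, with median log2 fold changes of 0.37 and 0.42 against -0.06 and -0.05 over all tested genes. Whether the cycle effect on a member differed between GL261 and GL261-GSCs was tested as an interaction, which 0.867% of genes passed for G2/M-high and 0.428% for G1/S-high cells, and no member did by edgeR or limma-voom. In each of these comparisons 1 of the 9 members, Klf4, had an unadjusted p under 0.05. The difference for Klf4 in G2/M-high cells was -1.19 (edgeR adjusted p 0.159). It was -1.58 with an adjusted p of 0.0146 without GL261-GSCs replicate 4, and over its alternatives the adjusted p ran from 0.0146 to 0.658.

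**Figure D4:**
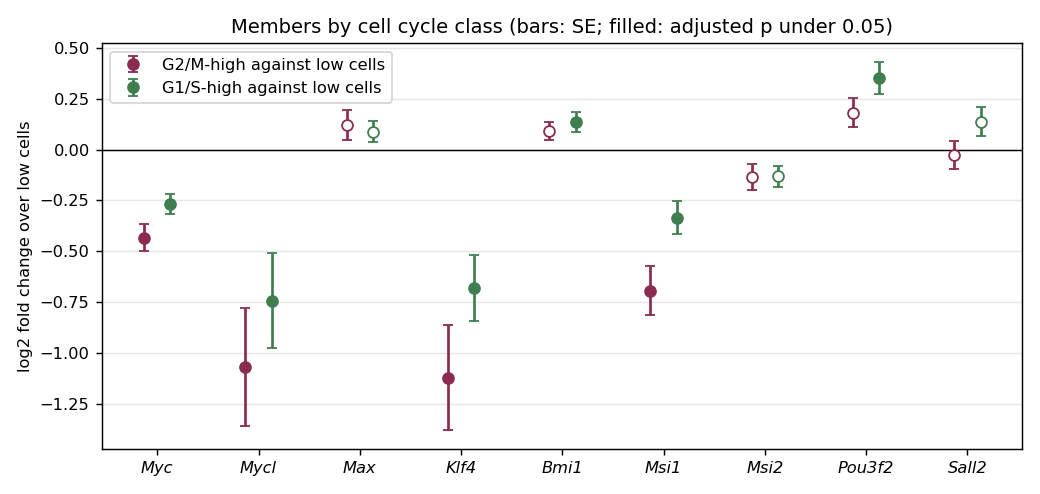
Log2 fold change (y axis) of the 9 members with UMIs in G2/M-high and G1/S-high cells over low cells of the same 6 libraries, with SE bars and filled points where the adjusted p is under 0.05. Klf4, Mycl, Msi1 and Myc lie below 0 in both comparisons, and Pou3f2 lies above 0.

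Cells with a Myc UMI at 2000 UMIs per cell, called cells with Myc below, were compared with the other cells of the same library. Without thinning 65.6% of GL261 and 90.2% of GL261-GSCs cells held a Myc UMI on average. Many of the other cells therefore did hold Myc RNA, and the classes do not separate cells with Myc RNA from cells without it. This comparison was added after earlier results were seen. Cells with Myc held more target RNA in 6 of 6 libraries, by 0.589 ± 0.244 (SD, n = 6) UMIs per 2000, from 15.6 to 16.2 on average (exact sign-flip permutation p 0.03125, the smallest possible). Among cells low in both cycle lists the difference was 0.782 ± 0.225 (SD, n = 6), with the same exact p. G2/M genes were slightly lower in the cells with Myc. This is another view of the lower Myc level in G2/M-high cells and not a separate result. In summed counts of each class, 15 of the 20 G2/M genes were called lower in GL261-GSCs and 16 of 20 in GL261 by edgeR, where 3.07% and 1.45% of all tested genes were. Of all tested genes 5.86% passed in GL261-GSCs, 2.79% as higher, and 1.91% in GL261, 0.465% as higher. Of the 25 target genes 4 were called higher in GL261-GSCs and none in GL261 by edgeR. An unadjusted p under 0.05 was found for 11 of 25 in GL261-GSCs, 10 higher and 1 lower, and for 7 of 25 in GL261, all 7 higher. The counts were the same by limma-voom. No other member was called in either group. Myc and Klf4 were seen in the same cell about as often as independence gives, at 1.05 and 1.08 times that number in the GL261 libraries and 1.04 times in GL261-GSCs replicates 3 and 4.

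A small set of GL261-GSCs cells held a Klf4 UMI at 2000 UMIs per cell, 36, 31, 196 and 170 cells in replicates 1 to 4. Set against the Klf4-negative cells of the same libraries, 288 of 8674 genes (3.32%) were called by edgeR, 2.11% higher and 1.21% lower. This comparison was also added after earlier results were seen, and its named genes are the 8 largest rises and 6 largest falls among called genes that averaged 5 or more in log2 CPM and had the same direction in 4 of 4 libraries. Klf4 itself defined the cells and is no result.

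Among the 8 genes named as higher, Atf3, a stress-induced transcription factor, stood at 95.4, 174, 56.0 and 81.3 CPM in the Klf4-positive cells of replicates 1 to 4 and at 30.1, 27.3, 14.4 and 17.7 CPM in the negative cells, a rise of 2.09 on the log2 scale (SE 0.18, edgeR adjusted p 2.2e-12). Hmox1, heme oxygenase 1, rose by 3.18 (SE 0.34, adjusted p 1.7e-09), but much of this came from the 31 cells of replicate 2. There it stood at 1930 CPM in positive cells against 24.6 in negative cells, while the other libraries had 123, 20.1 and 23.5 CPM against 30.1, 13.5 and 12.6. Without replicate 2 its log2 fold change was 1.13 (adjusted p 0.000406). Nupr1, a stress-induced chromatin protein, rose by 2.31, and by 1.33 without replicate 2 (adjusted p 6.74e-06), where it stood at 469 CPM against 8.19. The negative cells of replicate 2 were thinned in a single random draw to the 368259 UMIs of the positive cells. Low values there, such as 24.6 CPM for Hmox1 and 8.19 for Nupr1, thus rest on few UMIs. Trib3 and Ddit3, both induced by the unfolded protein response, rose by 1.91 and 1.65. When 1 library was left out these ranged from 1.66 to 2.52 and from 1.38 to 1.98. Gadd45a, a DNA damage and growth arrest gene, rose by 1.62 and by 1.09 without replicate 2 (adjusted p 0.00309), Gdf15, a stress-induced secreted factor, by 1.61, and Cdkn2b, a cyclin-dependent kinase inhibitor, by 1.46. Of the 4 target genes of Bmi1 and Musashi, Cdkn2b and Cdkn1a were thus higher (Cdkn1a 0.74, adjusted p 1.26e-05). Of the 9 tested other Kruppel-like factors Klf2 and Klf6 were higher, Klf6 by 1.01.

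Of the 20 G2/M genes 18 were called lower, with a median log2 fold change of -0.74, and none of the 20 G1/S genes was called by edgeR or limma-voom (4 of 20 had an unadjusted p under 0.05, all lower). Ckap2l, a spindle protein, fell by 1.01 on the log2 scale, the cyclins Ccnb1 and Ccnf by 0.98 and 0.98, and the ubiquitin-conjugating enzyme Ube2c by 0.91. Mki67, the proliferation marker, fell by 0.91, and Nusap1, a spindle protein, by 0.90. This is another view of the lower Klf4 level in G2/M-high cells and not a separate result. Replicates 3 and 4 supplied most of these cells, with 196 and 170. Without replicate 3, 71 genes were called, and Ckap2l, Ccnb1, Ccnf and Nusap1 no longer passed (edgeR adjusted p 0.191, 0.0696, 0.276 and 0.210).

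Mitochondrial UMIs had a median of 1.29%, 1.31%, 1.27% and 1.53% in the Klf4-positive cells and 1.04%, 1.11%, 1.26% and 1.34% in the negative cells of replicates 1 to 4, and the part of this in the result was not tested. Klf15, with 685 UMIs in GL261, had no UMI in any called GL261-GSCs cell, Klf4-positive cells included. In GL261 the same comparison rested on 1024 and 1121 Klf4-positive cells. Of 13430 genes in GL261, 590 (4.39%) were called by edgeR, among them 7 of the 25 Myc target genes, all lower. In GL261-GSCs 1 of the 25 was called, also lower, with 368259 to 2243873 UMIs per class against 14972053 and 15656511 in GL261. These counts rest on unlike depth and do not compare the groups. An unadjusted edgeR p under 0.05 was found for 11 of 25 in GL261, all lower. In GL261-GSCs it was found for 9 of 25, 8 lower and 1 higher. The named genes, picked for large changes in GL261-GSCs, had smaller values in GL261, which the choice itself favours. Examples were 0.31 for Hmox1 (SE 0.05, adjusted p 1.64e-06), 0.49 for Trib3 (SE 0.07, adjusted p 3.75e-10) and 0.00 for Cdkn2b (SE 0.08, adjusted p 0.994). Whether the groups differ in this was not tested.

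**Figure D5:**
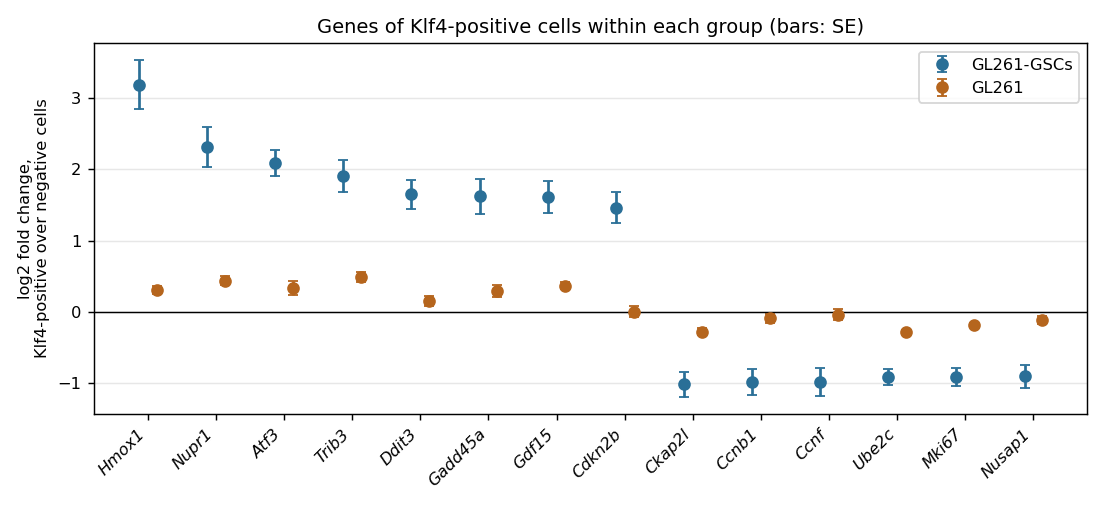
Log2 fold change (y axis) in Klf4-positive over Klf4-negative cells of 14 genes named by the rule in GL261-GSCs, with SE bars, beside the same genes in GL261. The 8 genes on the left rise by 1.46 to 3.18 in GL261-GSCs and lie between 0.00 and 0.49 in GL261, and the 6 genes on the right fall by 0.90 to 1.01 and lie between -0.28 and -0.04. The genes were picked for large changes in GL261-GSCs, a choice that favours smaller values in GL261. The point of Hmox1 rests largely on replicate 2.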

How the data were processed

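The authors deposited unfiltered matrices of UMI counts, which per the file headers come from Cell Ranger 4, mapped to mm10 per the submitters' processing notes. The sample titles give the groups and replicate numbers. The sources used here do not say whether counting used strand, or whether droplets held cells or nuclei. Gene positions are from GENCODE M21 (GRCm38, the assembly of mm10), to which 54409 identifiers (99.9%) matched without version.

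In each library the 99th percentile of UMIs over the 3000 largest barcodes was taken, and barcodes that reached 10% of it were called cells if they had at least 500 genes and under 10% mitochondrial UMIs. Doublets were not removed. UMIs were summed over called cells per library, or per library and class of cells, and tested with the edgeR 4.0.16 quasi-likelihood test (R 4.3.3, TMM, filterByExpr, Benjamini-Hochberg over all tested genes, 2-sided, threshold 0.05), with library as a block for classes within libraries. In the Klf4 and Myc comparisons the deeper class was thinned to the UMI total of the other. The SE is the absolute log2 fold change over the square root of the F statistic. CPM used TMM-scaled library sizes. Shares were compared with exact permutation tests in scipy 1.17.1, and have exact binomial (Clopper-Pearson) 95% intervals. Intervals and floors (3 UMIs) cover counting error only. Free RNA was estimated from barcodes with 100 to under 1000 UMIs.

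The genes named were the members, the 2 genes with the smallest p in each related list, the 2 most alike for each member, and those said to be chosen after their values were seen. Mlx, Cdkn2a, Klf2, Ddx1, Nbas and the single marker genes were also named after their values were seen. A result for 1 gene of these lists is not reported here. Members and lists were chosen with earlier results of these data known. The edgeR fits were tested on simulated data. Alternatives were DESeq2 1.42.0, limma-voom (limma 3.58.1), other scalings, filters, cell calls and thresholds, a replicate block, and leaving out each library.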

Additional observations from a re-analysis of the deposited data

Results flagged for a closer look

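In the 4 GL261-GSCs libraries, the share of cells with a Sall2 UMI at 2000 UMIs per cell was 3.99% in replicate 4 and 3.14%, 3.22% and 3.27% in the others. The gap made up 0.848 of the whole range, above Dixon's 95% critical value for 4 samples. It was 1 of 20 sets of 4 values examined, and chance alone marks about 1 in 20. Replicate 4 was also the library with the lowest median UMIs per cell, and the part of this in the value was not tested.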

How the results depend on the processing

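The calls of Myc, Mycl, Klf4 and Msi1 between the groups held, with their direction, in all 16 alternatives run for each. Max, Msi2, Pou3f2 and Sall2 passed in none of theirs. With the replicate number as a block (replicate block), Bmi1 was called (log2 fold change 0.42, adjusted p 0.0408, over its settings with all libraries 0.0408 to 0.665), as were Trrap (0.59, adjusted p 0.0386) and Cdkn2a (0.49, adjusted p 0.0292), the Myc targets had 6 genes higher and 1 lower with a median of 0.06, and 6512 genes were called in place of 5514. Deviations of same-numbered libraries from their group means correlated at -0.0264 and 0.0367. The 2 GL261 libraries deviate as mirror images of each other, so these values cannot show whether the replicate numbers pair the libraries. Uncalled values changed sign for Pou3f2 (-0.28 without GL261 replicate 1, -0.22 without GL261-GSCs replicate 2, and a range of -0.28 to 0.43 over the libraries left out) and Sall2 (0.08 with library size scaling). In the cycle comparisons they changed sign for Sall2 in G2/M-high cells (0.14 with the top 10% of cells, 0.00 without GL261-GSCs replicate 4, and a range of -0.05 to 0.00) and for Max in G1/S-high cells (-0.01 with the top 10%). The cause was not tested.

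Leaving out 1 library gave 1817 to 6193 genes called between the groups, with 1972 and 1817 without GL261 replicates 1 and 2, where a lone library is assumed to vary like the other group. It gave 6043 to 6909 in the G2/M comparison, 4822 to 5897 in the G1/S comparison, 71 to 236 in the Klf4-positive and 380 to 649 in the Myc-positive comparison of GL261-GSCs. The difference of the cycle effects between groups was called for 122 genes (G2/M) and 59 genes (G1/S), with a range of 0 to 241 and 0 to 167 when 1 library was left out. For G2/M it was 65 with library size scaling and 52 with the top 10% of cells, and for G1/S 37 with the top 10%. Alternatives for the Klf4-positive and Myc-positive comparisons and for these differences were chosen after seeing the data. Depth limits Mycl, with 16 and 9 UMIs in the GL261 libraries.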
